A study of Mus musculus with 8 samples.

Results

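Basement membranes are the thin sheets of extracellular matrix that cells lay down beneath and around themselves. The genes described here were chosen by annotation: every protein-coding gene that the deposited table annotates with exactly the term basement membrane, after removal of tenascin-C, the lecticans and the netrin, ephrin, semaphorin and cathepsin families. Of 112 annotated protein-coding genes the rule dropped 7 and kept 105, out of 49164 genes with counts. No count enters the rule, but the theme was picked with the control and overexpression counts of these same libraries already examined, so the values below describe the genes, and the number that changed supports nothing about the group. The samples were N2a cells, an established mouse neuroblastoma line, 4 libraries labelled control and 4 labelled Nrsn2 OE. The overexpression cells were transiently transfected with Nrsn2, neurensin-2, which the labels call stress-responsive, and cells were collected 24 hours after transfection. What the controls received is not stated in the labels, nor is whether replicates were separate cultures, so p-values measure the spread between these libraries, which may be technical.

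In a basement membrane, laminin trimers of an alpha, a beta and a gamma chain polymerise at the cell surface, and a covalent network of type IV collagen forms beside them. Nidogens and the heparan sulfate proteoglycans perlecan and agrin link the networks, and integrins and dystroglycan hold them to the cell. In the developing nervous system these sheets support the migration and axon growth of neural crest derivatives, the lineage from which neuroblastoma arises.

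Levels are CPM, counts per 1000000 scaled with TMM factors, and libraries held 15347255 to 21395096 counts. Nrsn2 stood at 8.53 ± 1.67 CPM in the controls and 161 ± 12.0 CPM with overexpression (SD, n = 4 each). Of 10 sympathoadrenal and neuronal markers, 9 passed the count filter. Their summed level was 963 to 990 CPM in the controls and 782 to 841 CPM with overexpression, with 5 markers lower and 2 higher. Much of the sum was Stmn2, with 421 ± 17.1 and 301 ± 13.4 CPM. The 2 higher markers were Gata2 (log2 fold change 0.54) and Gata3 (0.48), and Th and Dbh were not called. Summed fibroblast markers were at 9.88 to 13.4 CPM in controls and 10.4 to 11.9 CPM with overexpression, with Fap, Col3a1 and Lum under 0.1 CPM. Pdgfra (6.33 CPM in the controls) and Pdgfrb (3.35 CPM) made up most of that sum, and no fibroblast marker was called. Endothelial markers summed to 11.5 to 15.8 and 11.0 to 15.4 CPM (Cdh5, Tie1, Emcn and Kdr under 0.1), Schwann and glial ones to 6.94 to 10.9 and 7.49 to 10.3 CPM (Sox10 and Foxd3 under 0.1). Other endothelial markers were expressed, with Pecam1 at 7.05, Vwf at 4.70 and Tek at 2.09 CPM in the controls. Vwf was called lower (log2 fold change -0.61) and Tek higher (0.54), and Pecam1 was not called. Epithelial markers summed to 0.706 to 1.40 and 0.223 to 1.10 CPM, and macrophage ones to 1.07 to 1.53 and 1.82 to 2.73 CPM. The 1 macrophage marker that was tested was called higher. The part of the mixed changes in sympathoadrenal and neuronal markers in the matrix results was not tested. In bulk RNA, fewer cells of a type and less RNA per cell cannot be told apart.

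With Nrsn2 overexpression, genes for perlecan, agrin, fibronectin, Sparc, the type IV collagen chain Col4a2 and the integrin chains Itga6, Itgb1 and Itgb4 fell modestly. Fbn1 and Col9a3 rose. Of the 105 genes, 58 passed the low-count filter. Among these 58, 23 were lower and 5 higher at an adjusted p under 0.05 in edgeR's test over all genes, and 30 were not called. In the same test 35.4% of all 15187 genes were called, 16.8% lower and 18.6% higher. The median log2 fold change of the 58 was -0.22, against -0.0009 over all tested genes. The falls were small: they ranged from -0.86 to -0.17 on the log2 scale with a median of -0.43, and 16 of the 23 were under 0.5. Groups did not overlap for 19 of the 23 lower genes and for all 5 higher ones, and for 27 of the 58 in all, where 32.6% of all tested genes did not overlap. Control library 4 held the highest control level for 15 of the 23 lower genes. Without that library, 21 were lower and the median was -0.18.

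**Figure D1:**
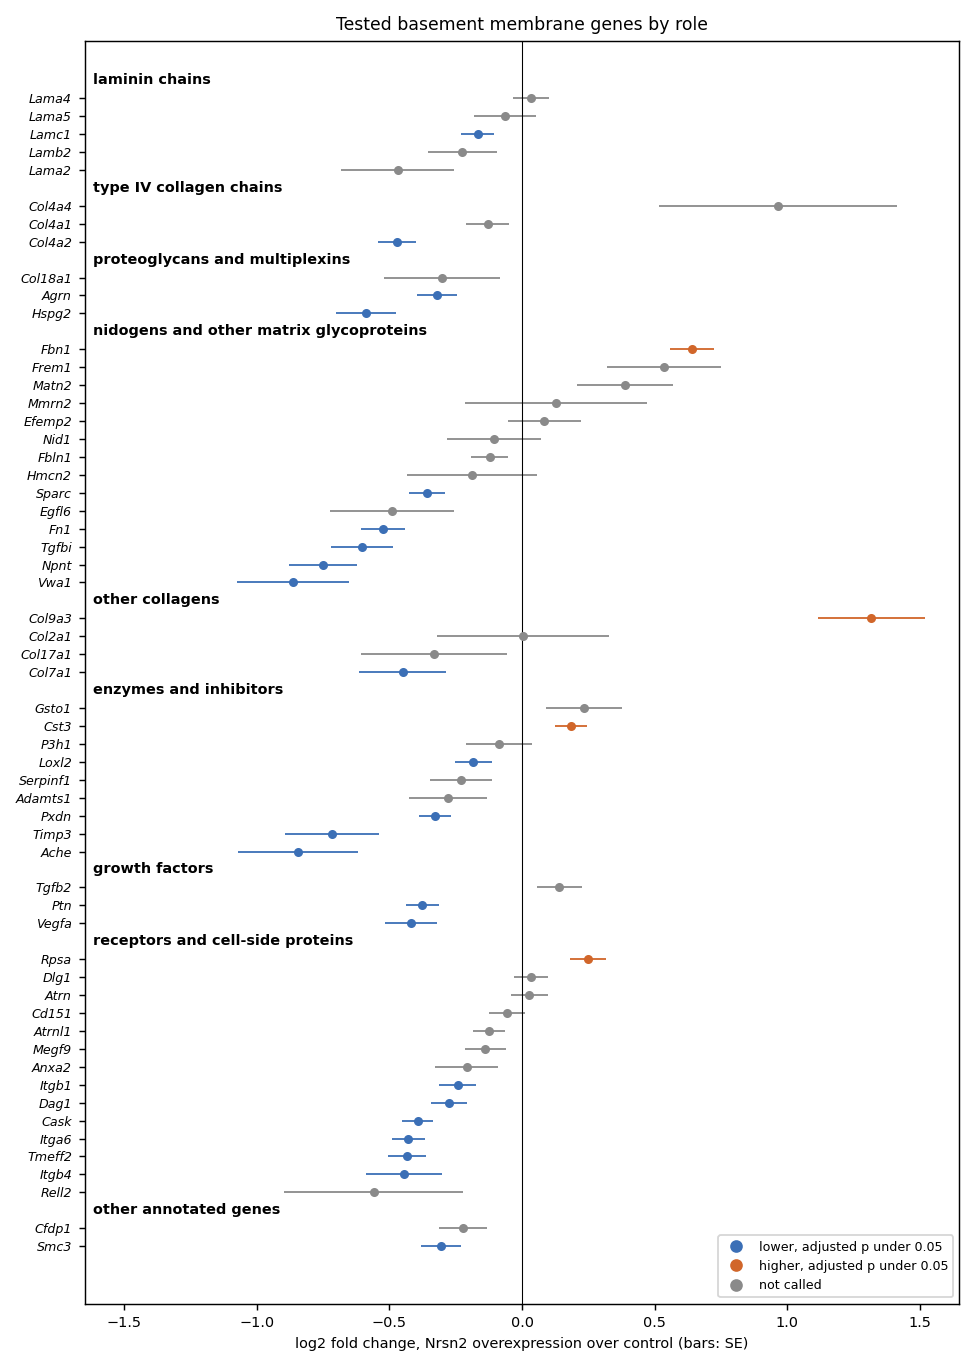
Log2 fold change of overexpression over control (x axis) for 57 tested genes, grouped by role, with bars for the SE of the edgeR fit. Blue points were lower (23 genes) and orange points higher (4 genes) at an adjusted p under 0.05, and grey points were not called (30 genes).

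The summed level of the 105 genes was 6545, 6384, 6438 and 6747 CPM in control libraries 1 to 4 and 5335, 5650.1, 5634 and 5668 CPM in overexpression libraries 1 to 4. Every overexpression library lay below every control library. Much of this sum came from genes whose main work lies elsewhere, the cohesin subunit gene Smc3, the ribosomal protein and laminin-binding gene Rpsa and the chromatin gene Cfdp1. With these left out, the sums were 4871 ± 185 CPM in the controls and 4074 ± 71.0 CPM with overexpression (SD, n = 4 each).

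The core components differed widely in level. Of the laminin, type IV collagen, proteoglycan and nidogen genes, per kilobase of annotated exons, Lamc1, the common laminin gamma1 chain, stood highest in the controls at 41.3 ± 1.95 CPM per kb. Next came the type IV collagen chain Col4a2 (14.98 ± 0.71), agrin (9.13 ± 1.00), Col4a1 (7.43 ± 0.42) and the laminin alpha4 chain Lama4 (7.25 ± 0.66), and the last 2 of these overlapped in range, from 7.10 to 8.01 and from 6.66 to 8.14 CPM per kb. Perlecan (Hspg2) followed at 2.37 ± 0.43, then Lama5 at 1.77 ± 0.26 and the beta2 chain Lamb2 at 1.43 ± 0.17 CPM per kb, with Lama5 (1.499 to 2.13) and Lamb2 (1.24 to 1.61) overlapping. Nidogen-1 (0.57 ± 0.13), Col18a1 (0.26 ± 0.05) and Lama2 (0.12 ± 0.01) were each under 1 CPM per kb.

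Little RNA for laminin beta chains was found. Lamb1, the beta1 chain of most embryonic laminins, drew only 63 counts over all 8 libraries and did not pass the filter, and Lamb3 drew 10. Lama1 (5 counts), Lama3 (23), Lamc3 (20), Col4a3 (26), Col4a5 (2), Col4a6 (14), Col15a1 (16) and nidogen-2 (20, beside the overlapping gene Rtraf with 13241) were likewise not tested. The laminin and type IV collagen chains above 1 CPM per kb in the controls were Lama4, Lama5, Lamb2, Lamc1, Col4a1 and Col4a2.

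**Figure D2:**
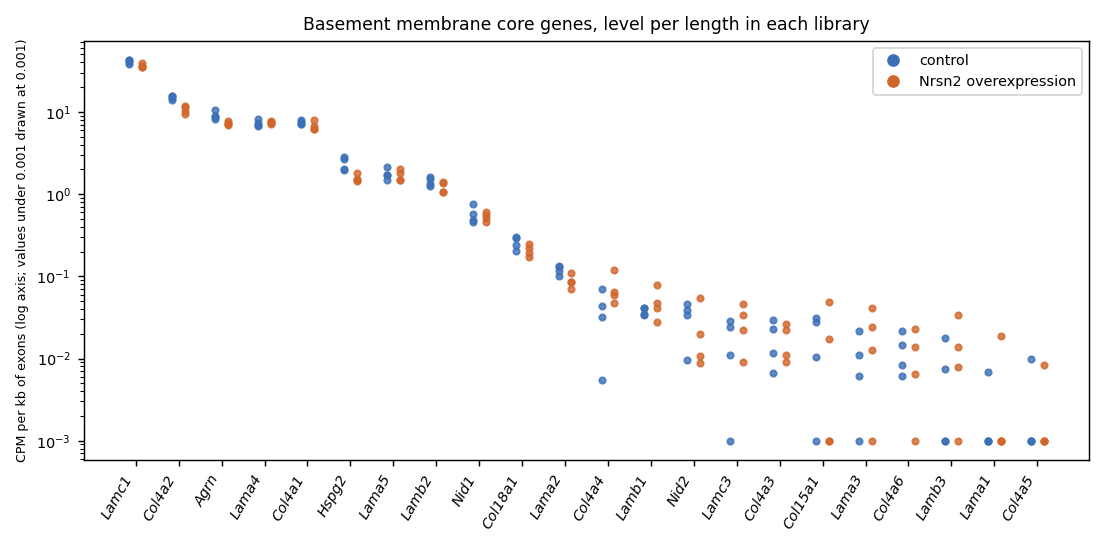
Level in CPM per kb of annotated exons (log y axis) of the laminin and type IV collagen chains, proteoglycans, multiplexins and nidogens in each library, 4 control (blue) and 4 overexpression (orange) points per gene, ordered by mean. Lamc1 stands highest at 41.3 CPM per kb in the controls, and Lamb1 drew 63 counts in all; values below the plotted scale, zeros included, are drawn at its lowest level.

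Among laminins, Lamc1 (GRCm39 chromosome 1, 153094668 to 153208532, minus strand), the most abundant laminin chain, stood at 337, 352, 320.5 and 356 CPM in the controls and 294, 329.7, 301 and 291 CPM with overexpression. Overexpression library 2 lay above control library 3, so the groups overlapped, and the call was marginal (log2 fold change -0.17 ± 0.06 SE; adjusted p = 0.0475). It was lost when control library 1, 2 or 4 or overexpression library 1, 3 or 4 was left out (adjusted p 0.0608 to 0.142).

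Lama4, the alpha chain of vascular and neural laminins, stood at 87.5 ± 7.91 and 89.7 ± 2.60 CPM and was not called (log2 fold change 0.03 ± 0.07). Lama5, the widespread alpha5 chain, had 20.2 ± 2.98 and 19.3 ± 2.99 CPM (-0.07 ± 0.12). Lamb2, the beta2 chain of synaptic and vascular laminins, had 8.71 ± 1.05 and 7.45 ± 1.09 CPM (-0.23 ± 0.13), and Lama2, the muscle and Schwann cell chain, 1.97 ± 0.23 and 1.43 ± 0.27 CPM (-0.47 ± 0.21). None of these 4 chains passed the test, and the libraries of the groups overlapped for each. With offsets for length and GC content, Lamb2 was called lower (-0.30; adjusted p = 0.0456).

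**Figure D3:**
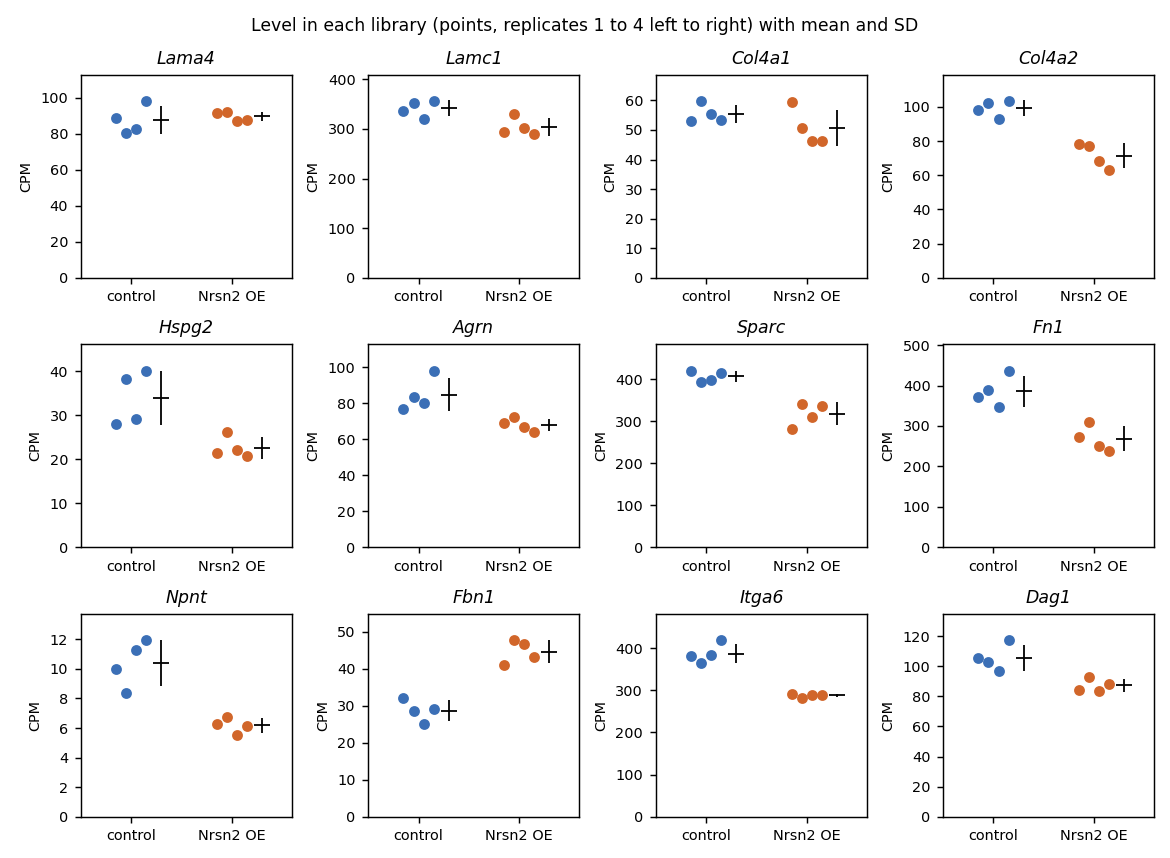
CPM (y axis, from 0) in each library for 12 genes, 4 control (blue) and 4 Nrsn2 overexpression (orange) points in replicate order, with the mean and SD beside them. Col4a2, Hspg2, Agrn, Sparc, Fn1, Npnt, Itga6 and Dag1 show lower and Fbn1 higher overexpression points without overlap, while Lama4, Lamc1 and Col4a1 overlap.

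Type IV collagen is built mainly from trimers of alpha1 and alpha2 chains, whose genes Col4a1 (chromosome 8, 11248423 to 11362826, minus strand) and Col4a2 (11362805 to 11499287, plus strand) start head to head from 1 shared promoter region. In GRCm39 the annotated genes overlap by 22 bases. Their start windows, from 250 bases before to 50 bases after each RefSeq start on GRCm38.p6, are shown because these 2 neighbours had different values below. They share 78 bases as reverse complements. The windows are chr8:11312777-11313076 on the minus strand for Col4a1 and chr8:11312555-11312854 on the plus strand for Col4a2, written 5′ to 3′. Capitals mark CCAAT and GC boxes (GGGCGG), each on either strand.
Col4a1: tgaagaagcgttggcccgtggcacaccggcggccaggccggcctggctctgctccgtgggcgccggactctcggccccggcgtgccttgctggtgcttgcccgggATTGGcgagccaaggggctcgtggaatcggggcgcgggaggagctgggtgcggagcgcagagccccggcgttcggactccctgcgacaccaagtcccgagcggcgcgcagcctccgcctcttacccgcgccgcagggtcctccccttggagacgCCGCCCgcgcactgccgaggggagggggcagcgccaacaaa
Col4a2: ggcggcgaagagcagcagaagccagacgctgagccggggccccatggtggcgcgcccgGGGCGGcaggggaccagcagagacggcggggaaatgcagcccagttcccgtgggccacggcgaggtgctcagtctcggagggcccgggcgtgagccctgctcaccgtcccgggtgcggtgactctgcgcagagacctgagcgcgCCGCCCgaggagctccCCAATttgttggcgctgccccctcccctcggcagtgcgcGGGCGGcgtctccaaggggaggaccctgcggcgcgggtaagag
The script-marked matches were 1 CCAAT box and 1 GC box for Col4a1 and 1 CCAAT box and 3 GC boxes for Col4a2. The shared bases held 1 GC box, and neither window held TATAAA.

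Col4a2 stood at 98.3, 102, 92.9 and 103 CPM in control libraries 1 to 4 and at 78.3, 76.8, 68.1 and 63.0 CPM in overexpression libraries 1 to 4. Every overexpression library was below every control (log2 fold change -0.47 ± 0.07; adjusted p = 9.73e-05). Col4a1 stood at 53.0, 59.8, 55.5 and 53.5 CPM in the controls and 59.5, 50.6, 46.4 and 46.2 CPM with overexpression. Overexpression library 1 lay within the control range, and the gene was not called (-0.13 ± 0.08; adjusted p = 0.23). Without that library Col4a1 was called lower (-0.21; adjusted p = 0.0242), so the missing call for Col4a1 rests on 1 library. Within each library, Col4a2 counts relative to Col4a1 were 1.86, 1.71, 1.67 and 1.93 in the controls and 1.32, 1.52, 1.47 and 1.364 with overexpression, a ratio that needs no scaling between libraries. All 4 overexpression ratios lay below the lowest control ratio, and per length the mean ratio was 2.02 and 1.597. This pair was singled out after its values were seen, so the ratio carries no test. Col4a4, a chain of the glomerular network that starts 71 bases from Col4a3, was scarce, with 0.40 ± 0.28 and 0.77 ± 0.35 CPM (0.96 ± 0.45; adjusted p = 0.103), and was called higher without control library 3 (1.37; adjusted p = 0.0424).

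**Figure D4:**
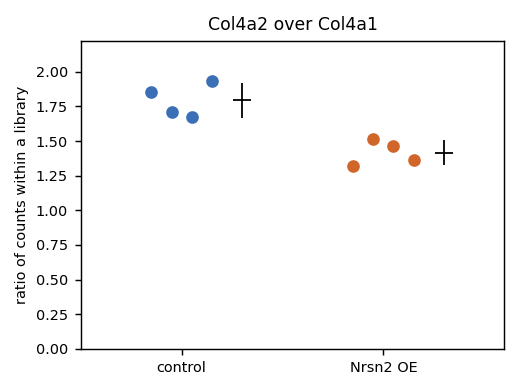
Ratio of counts within each library (y axis, from 0) for the head-to-head genes Col4a2 and Col4a1 with the mean and SD over 4 libraries per group. The Col4a2 ratio is 1.67 to 1.93 in controls (blue) and 1.32 to 1.52 with overexpression (orange), with no overlap.

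Both large heparan sulfate proteoglycans fell. Hspg2 (chromosome 4, 137196080 to 137297941, plus strand), which encodes perlecan, stood at 28.0, 38.2, 29.1 and 40.1 CPM in the controls and 21.3, 26.2, 22.1 and 20.7 CPM with overexpression. The control libraries spread widely, yet the lowest of them exceeded the highest overexpression library (log2 fold change -0.59 ± 0.11; adjusted p = 6.65e-04). Its start window (GRCm38.p6 chr4:137468553-137468852, plus strand) is shown as that of the core matrix gene with the deepest fall, and the capitals mark 5 GC boxes.
Hspg2: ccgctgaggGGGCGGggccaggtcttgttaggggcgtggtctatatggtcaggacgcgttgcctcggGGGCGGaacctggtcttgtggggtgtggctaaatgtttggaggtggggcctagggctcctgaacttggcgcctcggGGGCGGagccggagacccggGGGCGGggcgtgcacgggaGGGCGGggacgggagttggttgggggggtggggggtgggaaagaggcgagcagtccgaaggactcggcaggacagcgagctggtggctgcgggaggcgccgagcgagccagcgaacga
Agrn (chromosome 4, 156249747 to 156281945, minus strand), whose product agrin organises synapses, stood at 77.0, 83.5, 80.4 and 98.1 CPM in the controls and 68.9, 72.1, 66.5 and 64.2 CPM with overexpression, again without overlap (-0.32 ± 0.08; adjusted p = 0.0031). Col18a1, the source of endostatin, was at 1.82 ± 0.33 and 1.46 ± 0.23 CPM and not called (-0.30 ± 0.22), and the strongly expressed gene Slc19a1 overlaps it. Nid1, the nidogen that joins laminin to collagen, was at 3.95 ± 0.94 and 3.71 ± 0.43 CPM (-0.10 ± 0.18) and not called.

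Among nidogens and other matrix glycoproteins, 5 of 14 tested genes fell and 1 rose. Beside this and every role or list count below stand the shares over all tested genes, 16.8% lower and 18.6% higher. Fn1, fibronectin (chromosome 1, 71624679 to 71692359, minus strand), stood at 372, 389, 346 and 437 CPM in the controls and 273, 309, 251 and 239 CPM with overexpression, with no overlap (log2 fold change -0.53 ± 0.08; adjusted p = 1.20e-04). Sparc, a collagen-binding matricellular protein (chromosome 11, 55285326 to 55314009, minus strand), was at 421, 394, 399 and 415 CPM against 282, 342, 309 and 337 CPM, also without overlap (-0.36 ± 0.07; adjusted p = 5.90e-04). Both were abundant, with control levels of 107 CPM per kb for Sparc and 33.0 CPM per kb for Fn1.

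The deeper falls belonged to scarcer glycoproteins. Npnt, nephronectin, an integrin ligand (chromosome 3, 132587506 to 132656052, minus strand), stood at 10.0, 8.36, 11.3 and 11.9 CPM in the controls and 6.30, 6.78, 5.51 and 6.11 CPM with overexpression (-0.75 ± 0.13; adjusted p = 2.33e-04). Tgfbi, a TGF-beta induced adhesion protein (chromosome 13, 56757336 to 56787375), was at 9.93 ± 0.69 and 6.54 ± 0.62 CPM (-0.60 ± 0.12; adjusted p = 6.00e-04). Vwa1, a perlecan-binding protein (chromosome 4, 155852606 to 155859155), was at 4.94, 4.27, 5.07 and 8.32 CPM against 2.29, 4.09, 2.91 and 3.14 CPM (-0.86 ± 0.21; adjusted p = 0.00392), and its gap between the groups was narrow, with 4.27 CPM the lowest control and 4.09 CPM the highest overexpression library.

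Fbn1 moved the other way. This gene of fibrillin-1, the backbone of microfibrils (chromosome 2, 125142514 to 125349913, minus strand), stood at 32.0, 28.5, 25.03 and 29.0 CPM in the controls and 41.2, 47.8, 46.7 and 43.1 CPM with overexpression. Each overexpression library exceeded each control (log2 fold change 0.64 ± 0.08; adjusted p = 1.98e-05). The 8 genes of this role that were not called included the abundant Fbln1, fibulin-1, at 173 ± 10.4 and 159 ± 14.3 CPM (-0.12 ± 0.07), and their log2 fold changes ran from -0.49 (Egfl6) to 0.54 (Frem1).

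Of the other collagens, Col9a3 (chromosome 2, 180239583 to 180263982, plus strand), a chain of the cartilage collagen type IX, had the largest rise of the list. It stood at 1.53, 1.27, 1.00 and 1.71 CPM in the controls and 3.96, 3.73, 2.91 and 3.36 CPM with overexpression (log2 fold change 1.32 ± 0.20; adjusted p = 8.15e-05), and the groups were well apart. Col7a1, the anchoring fibril collagen, was at 4.00 ± 0.56 and 2.93 ± 0.32 CPM (-0.45 ± 0.16; adjusted p = 0.0399), with 1 overexpression library above the lowest control. That call was lost when control library 1 or 4 or overexpression library 1, 3 or 4 was left out (adjusted p 0.0569 to 0.108). Col17a1 (-0.33 ± 0.27) and Col2a1 (0.004 ± 0.325) were not called.

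Matrix enzymes and inhibitors had 4 lower and 1 higher of 9 tested genes. Pxdn, peroxidasin, which forms sulfilimine cross-links in type IV collagen (chromosome 12, 29987607 to 30067657), stood at 126, 122, 113 and 116 CPM in the controls and 99.7, 95.6, 92.5 and 92.7 CPM with overexpression (-0.33 ± 0.06; adjusted p = 4.60e-04). Timp3, an inhibitor of matrix metalloproteinases (chromosome 10, 86136236 to 86185370), was at 4.00, 3.98, 3.40 and 5.04 CPM against 2.23, 3.00, 2.08 and 2.70 CPM (-0.72 ± 0.18; adjusted p = 0.00462). Timp3 lies inside the span of Syn3 on the other strand. The kit does not mark strand, so reads over any shared exons cannot be told apart, but whether exons overlap was not examined. Groups were separate for both Pxdn and Timp3.

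Ache, acetylcholinesterase, was at 2.88, 5.42, 4.61 and 7.44 CPM against 3.51, 3.00, 2.49 and 2.42 CPM (-0.84 ± 0.23; adjusted p = 0.00744), with control library 1 inside the overexpression range. Loxl2, a lysyl oxidase that cross-links collagen, was at 149 ± 15.4 and 132 ± 3.52 CPM (-0.18 ± 0.07; adjusted p = 0.0485), and its call was lost when any library but control library 2 or 3 was left out. Cst3, the protease inhibitor cystatin C, rose from 91.6 ± 4.50 to 104 ± 3.41 CPM (0.19 ± 0.06; adjusted p = 0.0234). With offsets for transcript length and GC content the log2 fold change of Cst3 was 0.03 (adjusted p = 0.702), so its rise was not called there. It was not called without control library 1 (adjusted p = 0.0835) or overexpression library 4 (0.0515). Adamts1, Gsto1, P3h1 and Serpinf1 were not called, with log2 fold changes from -0.28 to 0.23.

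Of the growth factors stored in matrix, 2 of 3 tested fell. Ptn, the heparin-binding cytokine pleiotrophin, stood at 325, 328, 329 and 312 CPM in the controls and 234, 240.0, 257 and 265 CPM with overexpression (-0.38 ± 0.06; adjusted p = 1.52e-04), with the groups well apart. Vegfa, vascular endothelial growth factor A, was at 121, 145, 127 and 187 CPM against 112, 105, 109 and 108 CPM (-0.42 ± 0.10; adjusted p = 0.00319). Its size rested on control library 4, without which the log2 fold change was -0.28 (adjusted p = 0.00576). Tgfb2 was at 48.0 ± 2.86 and 53.0 ± 6.93 CPM and was not called.

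Receptors and proteins on the cell's side of the membrane had 6 lower and 1 higher of 14 tested. Itga6, the alpha6 integrin of laminin receptors (chromosome 2, 71575960 to 71688760, plus strand), stood at 381, 364, 384 and 419 CPM in the controls and 291, 283, 288 and 289 CPM with overexpression (-0.43 ± 0.06; adjusted p = 4.65e-05). The overexpression libraries were nearly equal and all lay under the lowest control. Its partners Itgb1 (748 ± 45.6 and 632 ± 40.9 CPM; -0.24 ± 0.07; adjusted p = 0.0105) and Itgb4 (5.01 ± 0.60 and 3.69 ± 0.19 CPM; -0.44 ± 0.14; adjusted p = 0.0223) also fell without overlap, and Itgb4 lost its call without control library 1 or 2 or overexpression library 4 (adjusted p up to 0.0590).

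Dag1, which encodes dystroglycan (chromosome 9, 108081833 to 108141157, minus strand), stood at 105, 103, 96.9 and 117 CPM in the controls and 84.3, 92.6, 83.8 and 88.3 CPM with overexpression, without overlap (-0.28 ± 0.07; adjusted p = 0.00409). Cask, a scaffold kinase that binds syndecans, went from 180.1 ± 6.65 to 137 ± 3.72 CPM (-0.39 ± 0.06; adjusted p = 6.05e-05). Tmeff2, a transmembrane protein with follistatin domains, went from 169 ± 14.5 to 125 ± 8.02 CPM (-0.43 ± 0.07; adjusted p = 1.51e-04). All 3 had separate groups. Rpsa rose from 376 ± 35.4 to 447 ± 8.04 CPM (0.25 ± 0.07; adjusted p = 0.00919). Its many processed pseudogenes can share its reads, so the level is uncertain. The annexin gene Anxa2, the tetraspanin gene Cd151, Dlg1, Atrn, Atrnl1, Megf9 and Rell2 were not called, with log2 fold changes from -0.56 to 0.03.

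Smc3, a cohesin subunit that the table also lists under basement membrane, went from 970.5 ± 41.0 to 785 ± 79.1 CPM (-0.31 ± 0.07; adjusted p = 0.00399), and Cfdp1 was not called (-0.22 ± 0.09).

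The remaining 47 genes were too scarce to test, and no library held more than 21 counts of any of them. Efemp1, Loxl1 and Ang6 had no count in any library. Taken singly, a library without a count allows up to 3 counts, or 0.195 CPM in the smallest library (counting error only). The limit over all libraries together is lower. Fras1, Frem2 and Frem3 were also under the filter, while Frem1 passed it. Further genes under it were hemicentin-1, the thrombospondin genes Thbs2 and Thbs4, Smoc2, tubulointerstitial nephritis antigen and the kidney slit gene Nphs1. These are genes of epithelial, glomerular or connective tissue.

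Genes that make, receive and remodel the basement membrane were counted in 4 lists. For collagen processing and secretion, 11 of 22 tested genes were lower and 0 higher (median log2 fold change -0.26), beside 16.8% lower over all genes, and 9 of 19 were lower when genes of the list above were left out. Besides Pxdn, Plod2, a lysyl hydroxylase of collagen, had 232 ± 63.4 and 148 ± 6.10 CPM (-0.65 ± 0.12; adjusted p = 5.00e-04). Control library 4 stood at 326 CPM and the other controls at 189 to 209 CPM, so the size of the Plod2 fall rested partly on that library. Mia2, which helps large cargo leave the endoplasmic reticulum, had 271 ± 8.42 and 216 ± 13.7 CPM (-0.32 ± 0.06; adjusted p = 6.52e-04). The scarce gene Lox of this list did not pass the filter. It drew 1, 1, 0 and 0 counts in the controls and 3, 10, 4 and 4 with overexpression. In the authors' DESeq2 result its log2 fold change was 3.18 ± 1.24 (adjusted p = 0.0485).

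For receptors, 9 of 19 tested were lower and 0 higher (median -0.24), and 5 of 14 without shared genes. The collagen-binding integrin chains had the deepest values. Itga1 went from 30.8 ± 1.44 to 17.2 ± 0.44 CPM (-0.84 ± 0.08; adjusted p = 6.77e-07) and Itga2 from 22.1 ± 2.65 to 13.6 ± 0.98 CPM (-0.71 ± 0.10; adjusted p = 3.81e-05), each without overlap between the groups. The laminin-binding integrin chains Itga3 (-0.33 ± 0.14; adjusted p = 0.0662) and Itga7 (0.20 ± 0.24; adjusted p = 0.545) were not called. Of 16 tested enzymes of the pathway that builds the laminin-binding glycan on dystroglycan, 2 fell and Dpm2 (0.25 ± 0.09) rose, with a list median of -0.02. Dpm2 kept its call only when control library 3 or overexpression library 1 was the one left out, and with overexpression library 3 or 4 left out none of the enzymes was called in either direction.

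Of matrix proteases and their inhibitors, 7 of 20 tested were lower and 0 higher (median -0.27). They included the proteoglycan-cleaving Adamts4 (-0.51 ± 0.10; adjusted p = 6.39e-04), the inhibitor Timp4 (-0.83 ± 0.20; adjusted p = 0.00304) and Mmp11 (-0.46 ± 0.11; adjusted p = 0.00414). Each of these 3 overlaps the span of a more abundant gene on the other strand (for Timp4 it is Syn2 and for Mmp11 Chchd10). Whether their exons overlap was not examined. At an unadjusted p under 0.05 in edgeR, 1 collagen processing gene, 0 receptors and 1 protease or inhibitor were higher, and DESeq2 called 0 higher in each of these lists.

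Basement membrane genes encode long transcripts, and over all protein-coding genes the log2 fold change was lower in longer genes. The medians of the basement membrane genes did not fall steadily with length. The 58 tested genes had a median exon length of 6.31 kb, against 4.55 kb for all 12208 tested protein-coding genes. In 4 bins of protein-coding genes from the shortest to the longest, the median log2 fold change was 0.10, 0.03, 0.004 and -0.03, and 10.7%, 15.1%, 17.8% and 22.2% were lower. In the same bins the basement membrane genes had medians of -0.14, -0.23, -0.28 and -0.18, and 0 of 6, 6 of 14, 7 of 14 and 10 of 24 were lower, while 1, 2, 0 and 2 were higher. In the shortest bin, where edgeR called 0 lower and 1 higher, 2 of the 6 genes were lower at an unadjusted p under 0.05, and DESeq2 called 1 lower and limma-voom 0. In the bin with 0 higher, 1 gene was higher at an unadjusted p under 0.05 in edgeR, and DESeq2 and limma-voom each called 0 higher. The part of length in the result was not tested beyond the offsets. With offsets for length and GC content, the list median moved to -0.25, with 27 genes called lower and 5 called higher.

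RefSeq start windows were found for 78 of the 105 genes, and for 16 of the 23 lower ones. Of the 20 windows of lower genes, 17 held a GC box (85.0%), against 72.4% of windows of all tested basement membrane genes, 60.6% for all tested genes and 35.7% of all 32851 windows. A CCAAT box was found in 9 of the 20 (45.0%) against 38.6% for all tested genes and 37.4% of all windows. TATAAA was in 0 of the 20, against 7.46% and 13.6%. The CCAAT box, the GC box and the TATA box (TATAAA) were searched on both strands, each counted whether or not it overlapped another, and a match describes the letters only.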

How the data were processed

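PolyA RNA of 4 control and 4 Nrsn2 overexpression libraries was analysed from 1 table. Per the labels' protocols, libraries came from a TruSeq V2 kit and single-end reads. Listed tools are HTSeq 2.01, TopHat2 2.1.1, DESeq2 1.36.0 and cutadapt 2.10, on GRCm39, per the submitters' processing notes. The strand setting is not given in the sources used here. The deposited counts are whole-number reads per gene, per the file headers. The authors also deposited a normalized signal (counts over size factors), a log2 fold change, its standard error and Wald score, and p-values. In the authors' deposited table, 85 of the 105 genes have an adjusted p, with 24 lower and 5 higher under 0.1.

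Of 55414 rows, 49164 had counts. These were tested with edgeR 4.0.16 (R 4.3.3) by the quasi-likelihood F test with TMM and filterByExpr at a minimum count of 10, Benjamini-Hochberg adjusted over all 15187 genes. Standard errors were derived from the F statistic. The fit was checked on simulated data. No pair of replicates agreed within sampling noise (chi-square per degree of freedom 2.58 to 15.9). Pairs holding overexpression library 1 had 13 to 15.9, the other overexpression pairs 2.58 to 6.35 and control pairs 4.5 to 11. Exon length and GC content came from GENCODE M21 by gene identifier (99.8% of tested genes), and start windows from RefSeq on GRCm38.p6; no coordinates were carried between builds. The genes, their roles and the other lists were chosen with earlier results of these data known. The naming rule took the tested core genes, the 6 largest falls and up to 6 rises without overlap, and 3 genes per list, a few of which are not reported here; the other called genes are named after their values were seen. Alternatives were size factors of DESeq2, no filter, DESeq2 1.42.0, limma-voom (limma 3.58.1), a replicate block, length and GC offsets, and leaving out each library.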

Additional observations from a re-analysis of the deposited data

Results flagged for a closer look

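Of 52 groups of 4 libraries examined for the 26 genes that the naming rule took, 1 held a library far from the others, and chance alone marks about 1 group in 20. Cst3 stood at 84.9 CPM in control library 1, while the other controls lay between 93.3 and 94.4 CPM.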

How the results depend on the processing

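The counts of 23 lower and 5 higher genes stayed within 1.5 times under every alternative run. Leaving out a library gave 20 to 23 lower and 4 to 6 higher genes, and a median of -0.25 to -0.18. Without the low-count filter, 102 genes were tested and the median was -0.11. With the replicate number as a block, 20 genes were lower and 5 higher. Same-numbered libraries did not vary together (correlations -0.10 to 0.06, none best matched by its own number). No pairing by number was seen, which cannot exclude that same-numbered libraries were handled together. Of 46 single genes followed, no call reversed in direction under any of the 14 alternatives, and size factors of DESeq2 changed no call. Lamb2 gained a call with offsets for length and GC content, as did Col4a1 and Col4a4 with 1 library left out. Among calls near the threshold, Lamc1, Loxl2 and Col7a1 were lost with the replicate block (adjusted p 0.0587, 0.0640 and 0.0610), Col7a1 with DESeq2 (0.0552) and Loxl2 with limma-voom (0.0578). No filter also removed the calls of Lamc1, Cst3, Loxl2 and Col7a1.

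Among the other lists, collagen processing had 1 higher gene without the filter and 8 to 11 lower with a library left out, and receptors 8 to 10 lower. Proteases and inhibitors had 1 higher gene with limma-voom, and 0 to 1 higher and 6 to 7 lower with a library left out. Dystroglycan glycosylation genes were 0 higher and 0 lower without the filter, 2 higher with limma-voom or the replicate block, 1 lower with offsets for length and GC content, and 0 to 2 higher and 0 to 3 lower with a library left out. The cause was not tested. Low counts limit the 47 scarce genes, whose changes the main fit did not test.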
